A study of Mus musculus with 4 samples.

Results

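The genes described here are 9 components and receptors of the complement system, *C1qa*, *C1qb*, *C1qc*, *C3*, *C4b*, *Cfb*, *Cfp*, *C3ar1* and *C5ar1*. They were found by gene symbol among the 45802 symbols of the deposited table, and all 9 had a value in each of the 4 libraries, as did 14415 genes in all. The libraries were made from periosteal stromal cells of male Pdgfrα-mTmG mice 9 to 10 weeks old. In these animals the *Pdgfra* promoter drives CreER, and tamoxifen (150 mg/kg per day for 5 days, given to all animals) switches a cell with active CreER from membrane tdTomato to membrane GFP. Hindlimb periosteal cells were taken 14 days after the last dose, grown for 1 passage with 10 ng/mL bFGF, and sorted as negative for CD31, CD45 and Ter119. PDGFRα reporter+ cells were those with GFP and PDGFRα reporter− cells those with tdTomato. The reporter therefore marks where the promoter was active when tamoxifen was given, not the level of *Pdgfra* in the sorted cells. Total RNA of 2 libraries per population was sequenced, each from pooled cells of several mice (3 to 6 by the sample labels, 5 to 8 by the methods), and nothing states that libraries of 1 population came from separate groups of animals. The table heads its libraries with the numbers 2 and 3, which are used here as names, and nothing states whether a shared number marks a shared cell preparation.

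Complement is a cascade of plasma and cell surface proteins that tags cells and debris for uptake and recruits leukocytes. C1q, built from the A, B and C chains, recognizes bound antibody and dying cells and starts the classical pathway, which cleaves C4. Factor B and properdin belong to the alternative pathway, all routes meet at C3, and the fragments C3a and C5a act on the receptors C3aR and C5aR1. Macrophages are the main source of C1q, and myeloid cells carry both receptors, whereas C3, C4 and factor B are also made by fibroblasts and other stromal cells. In bone, C3a and C5a are known to act on osteoblasts and osteoclasts.

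The values were log2 expression values after quantile normalization. The linear unit under the logarithm is not stated, so levels were compared between libraries for a given gene and not between genes. The depth of the libraries is unknown, and no counting error was given. The log2 fold change is the PDGFRα reporter+ mean less the PDGFRα reporter− mean, and the same difference was also taken within each library number. The 9 genes were chosen with this contrast known, so its values for them are a description without a test.

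The 3 C1q genes lie side by side on the minus strand of chromosome 4 (GRCm38, GENCODE M21), within 18675 bases, with *C1qb* at chr4:136880129-136886187, *C1qc* at chr4:136889804-136893065 and *C1qa* at chr4:136895917-136898803. *C3* is at chr17:57203970-57228136. The promoter sequences of *C1qb*, *C1qc* and *C3* are shown because these genes stand for the 2 patterns described below, C1q genes that separated the populations and a central component that separated the library numbers. The sequences are those of RefSeq on GRCm38.p6, minus strand, and each ends just before the start of the gene in RefSeq or, for *C1qc*, in GENCODE, where that is farther upstream. They span chr4:136886201-136886450 for *C1qb*, chr4:136893066-136893164 for *C1qc* and chr17:57228137-57228386 for *C3*. Capitals mark matches to GAGGAA (the core letters of sites of PU.1, a myeloid transcription factor), TTGCNNAA (C/EBP) and GGGA and CC parted by 4 bases of any kind (NF-κB) on either strand, and adjoining capitals can be overlapping matches on both strands.
*C1qb*: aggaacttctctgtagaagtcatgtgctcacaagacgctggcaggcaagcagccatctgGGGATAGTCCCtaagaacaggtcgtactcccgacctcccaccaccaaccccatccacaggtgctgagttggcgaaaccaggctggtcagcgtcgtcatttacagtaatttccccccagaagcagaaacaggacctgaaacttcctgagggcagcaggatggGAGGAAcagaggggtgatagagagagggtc
*C1qc*: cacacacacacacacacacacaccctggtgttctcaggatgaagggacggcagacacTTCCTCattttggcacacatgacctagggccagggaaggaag
*C3*: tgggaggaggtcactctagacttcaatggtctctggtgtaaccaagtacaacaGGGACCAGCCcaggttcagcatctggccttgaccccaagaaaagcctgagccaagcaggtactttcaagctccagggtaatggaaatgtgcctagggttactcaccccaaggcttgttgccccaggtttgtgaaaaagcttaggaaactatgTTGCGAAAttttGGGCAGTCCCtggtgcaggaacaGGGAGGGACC

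Promoters of 6 of the 9 genes were in the RefSeq table, and *C1qa*, *C4b* and *Cfb* were without an entry. In the 250 bases before the RefSeq start, GAGGAA was found for *C1qb* and *C1qc* alone among the 6, and in 23.3% of 32851 promoter windows of the same length. TTGCNNAA was found for *C3* alone, compared with 9.56% of all windows. The NF-κB letters were found for *C1qb*, *C1qc* and *C3*, compared with 17.6%, the match of *C1qc* lying past the end of the stretch printed above. The interferon element (GAAA, 2 bases of any kind, GAAA) was found for none of the 6, compared with 2.98%. The fifth motif, TATAAA on the strand of the gene, was found for *C3ar1* alone, compared with 7.59%. The motifs were chosen after the sequences and values were seen, and a match is not evidence of a bound site.

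Both PDGFRα reporter+ libraries had higher values than both PDGFRα reporter− libraries for the 3 C1q genes. *C1qb*, the B chain, had log2 values of 2.04 and 1.76 in PDGFRα reporter+ libraries 2 and 3, and of 0.23 and 0.62 in PDGFRα reporter− libraries 2 and 3. Its means were 1.90 ± 0.20 (SD, n = 2) and 0.43 ± 0.28 (SD, n = 2), a log2 fold change of 1.48 or 2.78-fold, with differences of 1.81 within number 2 and 1.14 within number 3. *C1qb* thus had the largest difference of means among the 9 genes, larger than the spread between libraries of either population. In such bulk samples, more cells of a type and more RNA per cell cannot be told apart. *C1qa*, the A chain, had values of 2.73 and 2.68 in PDGFRα reporter+ and of 1.23 and 1.92 in PDGFRα reporter− libraries 2 and 3. Its log2 fold change was 1.13 (means 2.71 ± 0.03 and 1.58 ± 0.49), made up of 1.50 and 0.76 within the numbers. *C1qc*, the C chain, had values of 2.44 and 2.22 in PDGFRα reporter+ and of 1.23 and 1.85 in PDGFRα reporter− libraries 2 and 3. Its log2 fold change was 0.79 (means 2.33 ± 0.15 and 1.54 ± 0.44), made up of 1.21 and 0.37. For each chain the lowest value was that of PDGFRα reporter− library 2 and the highest that of PDGFRα reporter+ library 2. After each chain was centered on its mean over the libraries, the 3 chains lay within 0.46 log2 units of each other in every library.

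**Figure D1:**
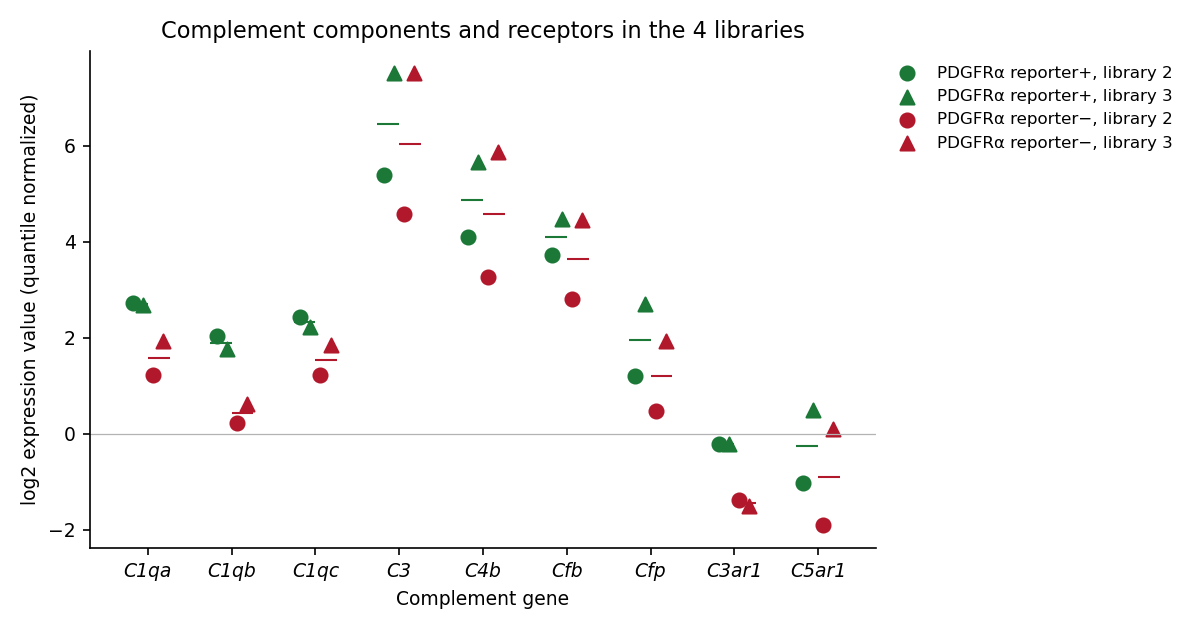
Log2 expression values (quantile normalized) of the 9 complement genes, with 1 point per library, green for PDGFRα reporter+ and red for PDGFRα reporter−, circles for libraries numbered 2 and triangles for libraries numbered 3, and lines at the means of n = 2 libraries. *C1qa*, *C1qb*, *C1qc* and *C3ar1* have both green points above both red points, whereas the points of *C3*, *C4b*, *Cfb*, *Cfp* and *C5ar1* are parted by library number.

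The central components differed between populations in the libraries numbered 2 and hardly in those numbered 3. *C3*, the component on which all pathways converge, had log2 values of 5.39 and 7.51 in PDGFRα reporter+ libraries 2 and 3, and of 4.59 and 7.51 in PDGFRα reporter− libraries 2 and 3. The populations overlapped, with means of 6.45 ± 1.50 (SD, n = 2) and 6.05 ± 2.07 (SD, n = 2). The log2 fold change of 0.40 came from a difference of 0.81 within number 2, compared with −0.00069 within number 3. *C4b*, the fourth component, whose cleavage follows activation of C1, had values of 4.10 and 5.66 in PDGFRα reporter+ and of 3.26 and 5.88 in PDGFRα reporter− libraries 2 and 3. The fold change was 0.31 (log2), with 0.83 within number 2 and −0.22 within number 3, so that PDGFRα reporter− library 3 held the highest value. *C4b* (chr17:34728380-34743882) has the near-identical neighbor *C4a*, and reads may have been divided between them. *C4a* had log2 values from −2.85 to −1.36 and was likewise higher in both libraries numbered 3.

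Of the alternative pathway, *Cfb* resembled *C3* and *C4b* in differing between populations within number 2 and hardly within number 3. *Cfp*, in contrast, differed between populations by nearly the same amount within both numbers. *Cfb*, which encodes factor B, the protease of the alternative C3 convertase, had log2 values of 3.73 and 4.47 in PDGFRα reporter+ and of 2.81 and 4.46 in PDGFRα reporter− libraries 2 and 3. Its log2 fold change was 0.47 (means 4.10 ± 0.53 and 3.63 ± 1.17), with 0.92 within number 2 and 0.0152 within number 3. *Cfb* (chr17:34856374-34862518) overlaps *Gm20547*, a gene on the same strand, so that reads from the shared stretch may belong to either gene. *Gm20547* had no value in any library. *Cfp*, which encodes properdin, the protein that stabilizes this convertase and is made by myeloid cells, is on chromosome X (chrX:20925454-20931555). Its values were 1.21 and 2.71 in PDGFRα reporter+ and 0.47 and 1.93 in PDGFRα reporter− libraries 2 and 3. The populations overlapped for *Cfp* (means 1.96 ± 1.06 and 1.20 ± 1.03), since PDGFRα reporter− library 3 lay above PDGFRα reporter+ library 2. The fold change was 0.76 (log2), with 0.73 within number 2 and 0.78 within number 3.

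The receptor genes differed in how evenly they parted the populations. *C3ar1* (chr6:122847138-122856161), which encodes the C3a receptor, had log2 values of −0.21 and −0.22 in PDGFRα reporter+ and of −1.39 and −1.50 in PDGFRα reporter− libraries 2 and 3. The libraries of each population nearly coincided, with an SD of 0.00296 and 0.0802 (n = 2 each). The log2 fold change of *C3ar1* was 1.23 or 2.35-fold, with 1.18 within number 2 and 1.28 within number 3. *C5ar1* (chr7:16246743-16259540), which encodes the C5a receptor, had values of −1.02 and 0.50 in PDGFRα reporter+ and of −1.91 and 0.11 in PDGFRα reporter− libraries 2 and 3. The populations overlapped for *C5ar1*, with means of −0.26 ± 1.08 and −0.90 ± 1.43. Its log2 fold change was 0.64, with 0.89 and 0.39 within the numbers. Both receptors were low in the range of the libraries, at percentiles 24.8 to 32.4 of the genes with a value for *C3ar1* and 22.9 to 38.2 for *C5ar1*, where a log2 fold change is less reliable. With a pseudocount of 1, the log2 fold change of *C3ar1* was 0.44 and that of *C5ar1* 0.23.

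All 9 genes had a positive log2 fold change, as did 49.1% of the 14415 genes, and their median was 0.76, compared with −0.0035 over all genes. The median was 0.0285 or 1.48 when PDGFRα reporter− library 2 or 3 was left out and 1.23 or 0.09 when PDGFRα reporter+ library 2 or 3 was left out. For 4 of the 9 genes, *C1qa*, *C1qb*, *C1qc* and *C3ar1*, the lower PDGFRα reporter+ value exceeded the higher PDGFRα reporter− value, beside 7.59% of all genes, and for 0 of the 9 the order was the reverse, beside 8.1%. PDGFRα reporter+ was higher within both library numbers for 7 of the 9, beside 22.1% of all genes, and lower within both for 0 of the 9, beside 24.8%. As the genes were chosen on this contrast, nothing is read from these counts. With 2 libraries against 2, an exact permutation test (two-sided) cannot go below p = 0.333.

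**Figure D2:**
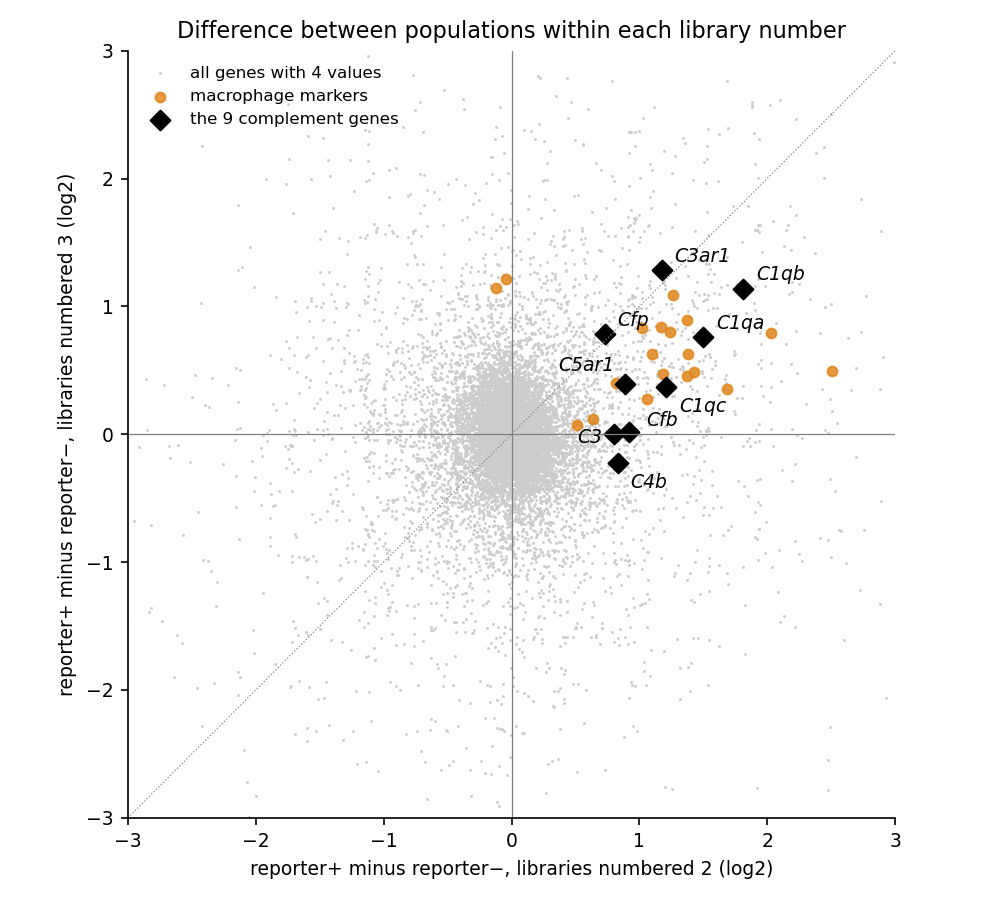
Difference between PDGFRα reporter+ and PDGFRα reporter− cells (log2) within the libraries numbered 2 (horizontal) and numbered 3 (vertical). Black diamonds are the 9 complement genes, orange points the 19 macrophage markers with 4 values and grey points all 14415 genes, of which 65 fall beyond the axes, and the dotted line marks equal differences. *C3*, *C4b* and *Cfb* lie to the right near a vertical value of 0, below all orange points, and *C3ar1* and *C1qb* lie highest among the diamonds.

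The library number moved 5 of the 9 genes by more than the populations did. *C3* was higher in library 3 than in library 2 by 2.12 on the log2 scale among PDGFRα reporter+ and by 2.92 among PDGFRα reporter− libraries. The corresponding differences were 1.56 and 2.62 for *C4b*, 1.52 and 2.02 for *C5ar1*, and 1.50 and 1.46 for *Cfp*. *Cfb* differed by 0.75 and 1.65. The mean of both differences placed *C3* at percentile 98.5 of all genes, *C4b* at 97.6, *C5ar1* at 96.6, *Cfp* at 95.4 and *Cfb* at 93.5. The C1q genes and *C3ar1* stood apart from these, at percentiles from 40.3 for *C3ar1* to 73.4 for *C1qa*. *C3ar1* differed between numbers by −0.0042 in the former population and by −0.11 in the latter, and the C1q genes were slightly lower in library 3 of PDGFRα reporter+ (−0.28 to −0.05) and higher in library 3 of PDGFRα reporter− cells (0.39 to 0.69). A difference of more than 1 in both populations, a limit chosen after the values were seen, was found for 4 of the 9 genes, beside 5.35% of all genes, and the reverse for 0 of the 9, beside 4.36%. The difference between numbers was not tested, since the sample labels do not say what the numbers stand for.

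**Figure D3:**
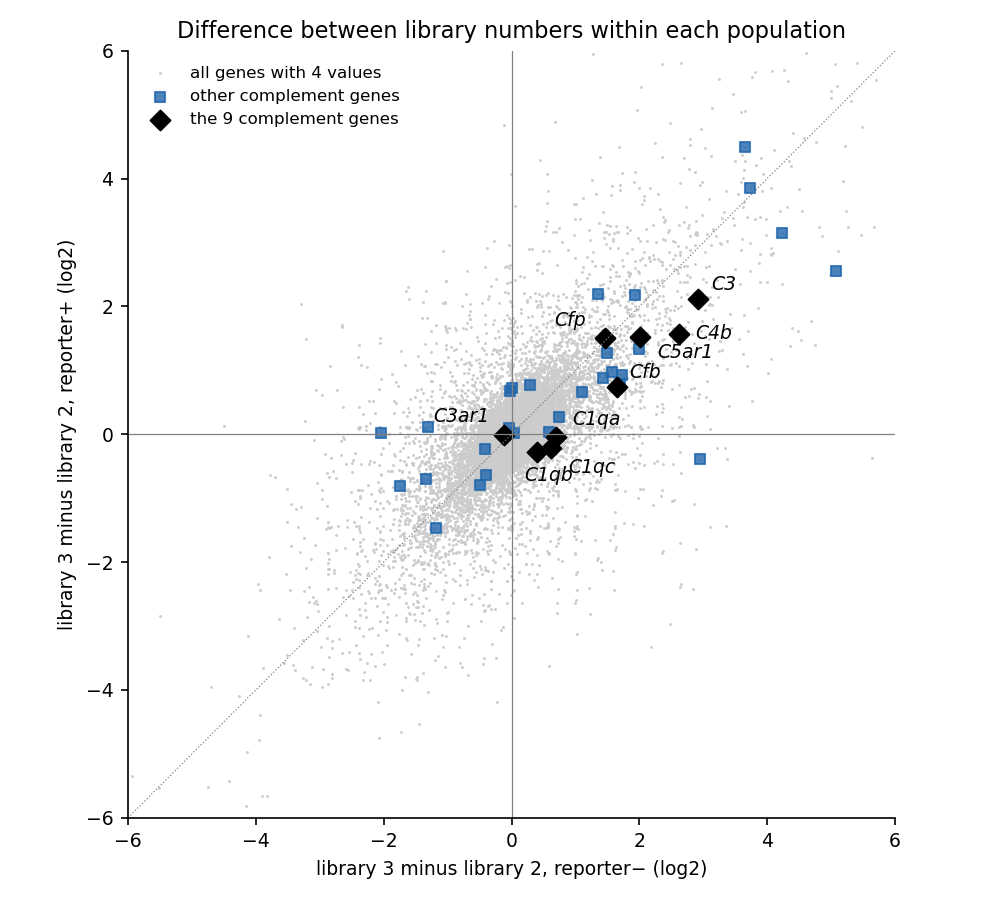
Difference between library 3 and library 2 (log2) within PDGFRα reporter− (horizontal) and PDGFRα reporter+ cells (vertical). Black diamonds are the 9 complement genes, blue squares the 29 other complement genes with 4 values and grey points all 14415 genes, of which 8 fall beyond the axes. *C3*, *C4b*, *C5ar1*, *Cfp* and *Cfb* lie to the upper right, and the C1q genes and *C3ar1* lie near the center.

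Of 44 other genes of the complement system, 29 had a value in all libraries, 10 in some libraries and 5 in none, the latter being *Mbl1*, *Fcnb*, *C8a*, *C8b* and *Cpn1*. With limma and Benjamini-Hochberg adjustment over the 14415 genes, none of the 29 passed an adjusted p of 0.05 (each had an adjusted p of 1), and the count at an unadjusted p under 0.05 was 0. Over all genes the adjusted count was 0 (0% higher and 0% lower), and 131 genes passed without adjustment, 0.451% upward and 0.458% downward. With the library number as a block, 0.153% of all genes were called higher and 0.0486% lower, and 0 of the 29. In that fit 6 of the 29 were higher at an unadjusted p under 0.05, beside 3.36% of all genes, and 0 were lower. The spread between the library numbers enters the error of the model without the block, so a count of 0 does not show that these genes were equal in the populations. Of the 29 genes, 22 had a positive log2 fold change, beside 49.1% of all genes, with a median of 0.26. That median was −0.19 or 0.55 when PDGFRα reporter− library 2 or 3 was left out and 0.62 or −0.0029 when PDGFRα reporter+ library 2 or 3 was left out, and it was 0.07 with a pseudocount of 1. PDGFRα reporter+ was higher within both numbers for 13 of them, beside 22.1% of all genes, and lower within both for 4, beside 24.8%. This list too was chosen with earlier results of these data known, so its counts are a description.

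Counting only those whose mean was 0 or more (log2), the most positive log2 fold changes given here were those of *Itgam* (0.99, SE 0.62), *Itgb2* (0.79, SE 0.48) and *Masp1* (0.65). *Itgam* and *Itgb2* encode the chains of complement receptor 3 of myeloid cells. *Itgam* had values of 0.50 and 1.38 in PDGFRα reporter+ and of −0.76 and 0.67 in PDGFRα reporter− libraries 2 and 3, with differences of 1.26 and 0.71 within the numbers. *Masp1*, a protease gene of the lectin pathway, changed direction between the numbers, with −0.39 and 1.68. Only 3 genes of this kind were negative, *Cd55* (−0.30), *Cd59a* (−0.20) and *Csmd1* (−0.16). *Cd55* and *Cd59a* encode membrane proteins that shield a cell from its own complement. The limma test called none of these genes.

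*C1ra* and *C1s1*, genes of the C1 proteases chosen here after their values were seen, were like *C3* higher in PDGFRα reporter+ cells within number 2 and hardly differed within number 3. The log2 values of *C1ra* were 6.14 and 7.07 in PDGFRα reporter+ and 5.43 and 7.17 in PDGFRα reporter− libraries 2 and 3, and *C1s1* had 6.15 and 7.48 and then 5.57 and 7.56. Their differences were 0.71 and 0.59 within number 2 and −0.09 and −0.07 within number 3. The related genes *C1rb* (2.58 within number 2 and −0.75 within number 3) and *C1s2* (−0.62 and 0.11), whose means were below 0, were not arranged in this way. *Serping1*, which encodes the C1 inhibitor, differed by 0.08 and 0.31 within the numbers, compared with 2.17 and 1.94 between the numbers within PDGFRα reporter+ and PDGFRα reporter− cells. Library 3 was above library 2 by more than 1 in both populations for 8 of the 29 genes, beside 5.35% of all genes, among them *C1s1*, *C4a*, *C6*, *C7*, *Cfi*, *Serping1* and *Vtn*. Of these, *C4a*, *C6*, *C7*, *Cfi* and *Vtn* had means below 0 (log2), where such a difference is less reliable. *C6* and *C7*, genes of the terminal pathway, differed between numbers by 2.55 and 3.86 in PDGFRα reporter+ cells, from values below −4 in library 2. *Cfd*, which encodes adipsin, the protease that cleaves factor B and is a known product of fat cells, was −3.85 in PDGFRα reporter+ library 2, 3.48 in PDGFRα reporter+ library 3 and 4.89 in PDGFRα reporter− library 3, and was blank in PDGFRα reporter− library 2. *C2*, the classical counterpart of *Cfb*, went the other way between numbers, with values from 1.12 to 1.24 in the libraries numbered 3 and from 1.74 to 1.92 in those numbered 2.

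**Figure D4:**
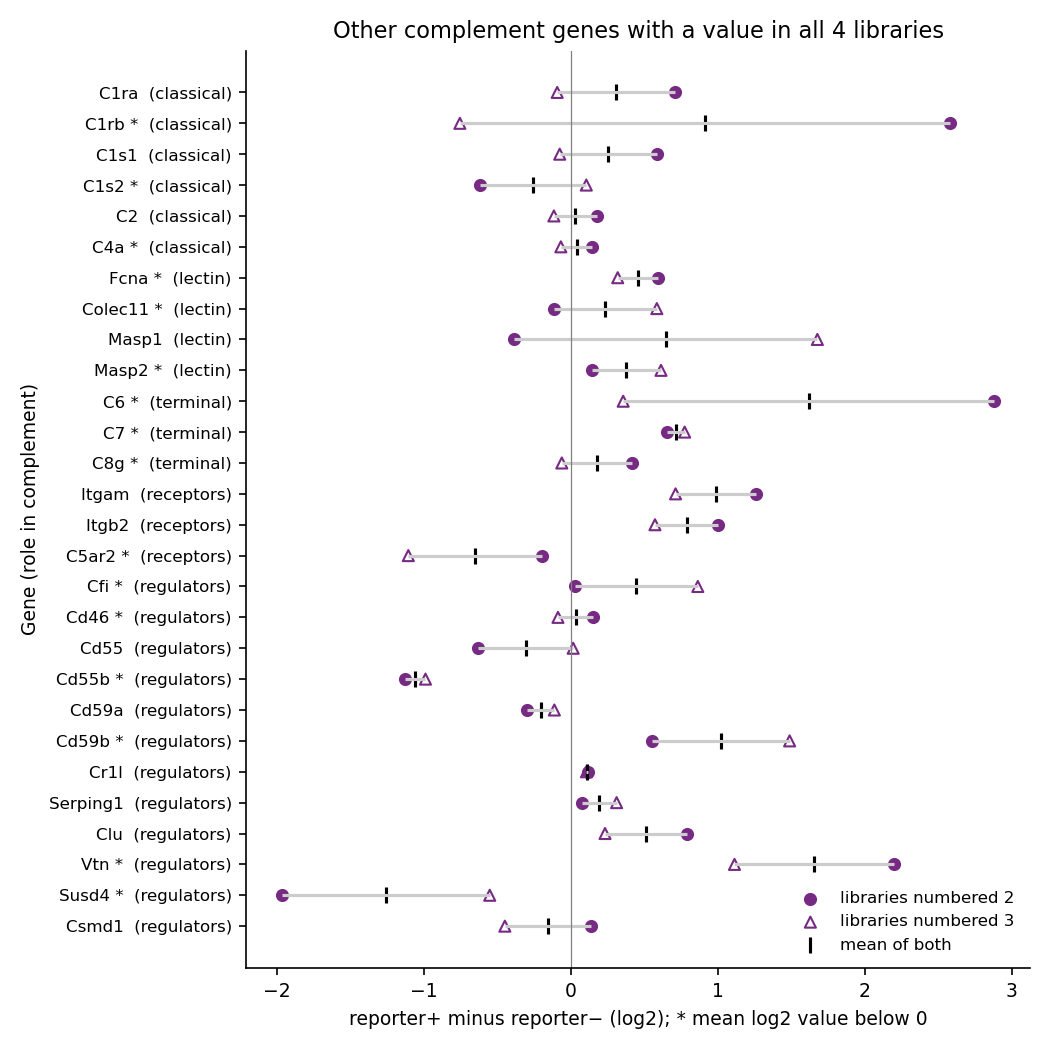
Difference between PDGFRα reporter+ and PDGFRα reporter− cells (log2) for 28 of the 29 other complement genes with 4 values, grouped by role, with filled circles for the libraries numbered 2, open triangles for those numbered 3 and bars for the mean of both. The symbols of *C1ra* and *C1s1* straddle 0 as those of *C3* do, and those of *Itgam* and *Itgb2* lie on the right of 0 within both numbers.

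Macrophage markers had positive differences between populations, as the C1q genes did, and their part in the C1q values was not tested. Of 21 macrophage markers, each of the 19 with 4 values had a positive log2 fold change, beside 49.1% of all genes, and 17 were higher in PDGFRα reporter+ cells within both numbers, beside 22.1%. Their median of 0.93 became 0.46 and 1.45 when PDGFRα reporter− libraries 2 and 3 were left out in turn, and 0.52 with a pseudocount of 1. With limma, 0 of the 19 passed an adjusted p of 0.05, beside 0% of all genes, and 3 were higher without adjustment, beside 0.451%. With the library number as a block, 1 was called higher (*Tyrobp*, adjusted p = 0.0437), beside 0.153% of all genes, but without the variance trend no gene was called in the blocked fit (smallest adjusted p = 0.463). With the trend kept, the blocked fit had 15 markers higher at an unadjusted p under 0.05, beside 3.36% of all genes. It had 0 lower, beside 2.97%. As the marker list was chosen with earlier results of these data known, nothing is read from these counts. *Adgre1*, the gene of F4/80, had values of 1.36 and 2.17 in PDGFRα reporter+ and of −0.01 and 1.27 in PDGFRα reporter− libraries 2 and 3 (log2 fold change 1.13, SE 0.55). *Ctss*, the gene of cathepsin S, had the largest log2 fold change of the list among markers with a mean of at least 0, at 1.41 (SE 0.35). The values of the 21 markers were also summed on the linear scale, to compare libraries and not genes, and came to 281.1 and 313.8 in PDGFRα reporter+ and to 117.8 and 206.5 in PDGFRα reporter− libraries 2 and 3. The ratio between populations was 2.39 within number 2 and 1.52 within number 3, and without *Lyz2*, the largest value in the sum, it was 1.97 and 1.46. No defining marker was absent from all libraries, but *Cd163* was blank in 3 libraries and *Fcgr1* in 1. *Ptprc*, the gene of CD45, which the sort selected against, had values of −1.28 and −0.39 in PDGFRα reporter+ and of −2.30 and −1.22 in PDGFRα reporter− libraries 2 and 3.

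Beside the macrophage markers, *C1qb* had a larger log2 fold change than 18 of the 19, *C3ar1* than 17, *C1qa* than 15, and *C1qc* and *Cfp* than 6 each. *C5ar1* was above 5 of them. Within number 3, *C3*, *C4b* and *Cfb* had smaller differences between populations than each of the 19 markers, whose median there was 0.62. Genes of other blood cells were mostly blank. Of 10 neutrophil markers 1 had a value in all libraries, of 6 B cell markers 0, of 6 T cell markers 1 and of 6 mast cell markers 0. The summed level of the neutrophil markers was 0.379 and 4.15 in PDGFRα reporter+ and 0.331 and 1.07 in PDGFRα reporter− libraries 2 and 3, a ratio between populations of 1.15 within number 2 and 3.89 within number 3. In PDGFRα reporter+ library 3 the neutrophil genes *S100a8* and *Camp* reached log2 values of 1.39 and 0.51. The other neutrophil markers were blank there or had values of at most −4.34 (*Ly6g*), so the sum rests on these genes. *S100a9*, *Ngp*, *Ltf* and *Retnlg* were blank in all libraries. The neutrophil sum, like *C5ar1* and *Cfp*, was higher in both libraries numbered 3, and the part of these markers in those results was not tested. The 10 markers of fibroblasts and stroma had values in all libraries, with a median log2 fold change of −0.0087, but they did not move alike. *Pdgfra* had a log2 fold change of 0.05, whereas *Lum*, the gene of lumican, had 1.83 (SE 0.33), more than *C1qb*, and *Dcn*, the gene of decorin, had 1.39 (SE 0.39). For *Lum* and *Dcn* both PDGFRα reporter+ values exceeded both PDGFRα reporter− values. With limma their adjusted p was 1, whereas in the blocked fit it was 0.0121 for *Lum* and 0.0651 for *Dcn*, and the call of *Lum* was likewise lost without the variance trend. Of 10 endothelial markers 8 had 4 values, with a median log2 fold change of −1.30 and a range from −4.26 to 0.09. Of these 8, 6 were lower in PDGFRα reporter+ cells within both numbers, beside 24.8% of all genes, 7 had a mean below 0, and their adjusted p with limma was 1.

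Of 13 genes of transcription factors and signaling inhibitors of inflammatory pathways, limma called 0 at 0.05 with adjustment, beside 0% of all genes, and 0 without, beside 0.451% higher and 0.458% lower, and the median log2 fold change was 0.05. As above, the spread between the library numbers enters this error. With 1 library left out, the median ranged from 0.04 to 0.16. *Nfkbia*, the gene of an NF-κB inhibitor, had a log2 fold change of 0.18, and the most negative were those of *Cebpa* (−0.35, SE 1.08) and *Irf7* (−0.14). *Cebpa*, which encodes a C/EBP factor, differed between populations by −0.05 within number 2 and −0.65 within number 3 and was higher in both libraries numbered 3, with values of 2.40 and 4.34 in PDGFRα reporter+ and of 2.46 and 5.00 in PDGFRα reporter− libraries 2 and 3. The other C/EBP genes of the list did not share this, as *Cebpb* stayed between 5.51 and 5.73 and *Cebpd* between 5.18 and 5.69.

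The genes with patterns closest to the 9 genes were sought among 10217 genes whose mean was 0 or more (log2), by the root mean square distance between centered values over the 4 libraries. For the mean of the 3 C1q genes they were *Ms4a7* (0.11), *Matn4* (0.14), *Cd68* (0.15), *Vegfc* (0.18) and *Ctss* (0.19), of which *Ms4a7*, *Cd68* and *Ctss* are macrophage markers of the list. For *C3* they were *Agtr1a* (0.15), *Stxbp6* (0.16), *Cdkn1c* (0.21), *Olfml1* (0.22) and *Dpt* (0.22). *C4b* lay at a distance of 0.23 from *C3*, *Cfp* at 0.59 and *Cfb* at 0.66. With 4 libraries, such a distance ranks genes and tests nothing.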

How the data were processed

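The authors deposited log2 values, 1 for each gene symbol in each library, with blanks where no signal was found. Stranded paired-end libraries of total RNA were sequenced on a NextSeq 500, and the submitters' processing notes name bcl2fastq 2.17.1.14, Partek 7.0 and build GRCm38.p6. The linear unit, aligner, counting, annotation and filters are not given in the sources used here. Quartiles, minimum and maximum were equal in the 4 libraries, as quantile normalization leaves them. Libraries were assigned to their population by column heading only. Columns of other samples numbered 0.

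The test for genes with 4 values (14415) was that of limma 3.58.1, run in R 4.3.3 (lmFit, eBayes with trend, no block, two-sided, Benjamini-Hochberg adjustment, threshold 0.05). Values were also simulated for these genes, with 200 genes changed by 2 (log2). The mean observed difference between library numbers was added equally to both populations, with noise at the variance of the blocked fit. On these values the model without a block recovered 0 and a model with the number as a block 183, with 11 false calls. This setting favors the block, since deviations in the data were only partly shared by the populations (correlation 0.68). It does not show which model suits the data. P-values measure the spread between libraries, which may be technical. Summaries and plots used Python 3.11.15, pandas 2.3.3, numpy 2.4.6 and matplotlib 3.10.9. Positions came from GENCODE M21.

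The members and lists were chosen with earlier results of these data known, so counts of listed genes beside the share of all genes are a description. Named were all 9 members, the 4 most positive and 4 most negative other complement genes with a mean of at least 0 (2 and 2 for macrophage markers and regulators), and the 5 genes nearest in pattern to C1q and to *C3*. Others were chosen after their values were seen. A few genes that the rule names are not reported here. Alternatives were a block, leaving out each library, a pseudocount of 1, a filter at a mean of 0, no trend, and centering, with 1 combination added after seeing the data.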

Additional observations from a re-analysis of the deposited data

Results flagged for a closer look

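The difference between the populations was positive within library number 2 and not within number 3 for *C3* and *C4b*. PDGFRα reporter+ less PDGFRα reporter− was 0.81 (log2) within number 2 and −0.00069 within number 3 for *C3*, and 0.83 and −0.22 for *C4b*. The value of *C3* within number 3 is close to 0. Each number has 1 library per population, and the difference between the numbers was not tested.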

How the results depend on the processing

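With the library number as a replicate block, 29 of all 14415 genes and 1 of 19 macrophage markers (*Tyrobp*) had an adjusted p under 0.05 with limma, compared with 0 and 0 without it. The block changed no call of the other complement genes or the regulators, and with the block but no trend the counts were 0 for all lists, beside 941 genes with an unadjusted p under 0.05. Libraries with the same number deviated together across genes (correlation 0.68), but the labels do not say that the number marks a shared preparation. The median log2 fold change of the 9 genes was 0.76 and ranged from 0.0285 (without PDGFRα reporter− library 2) to 1.48 (without PDGFRα reporter− library 3) with 1 library left out. Leaving out 1 library unbalances the numbers, and the sign then changed for *C3* (−1.06 to 1.86), *C4b* (−1.0021 to 1.61), *Cfb* (−0.36 to 1.29) and *C5ar1* (−0.37 to 1.65). It was positive in each case for *C1qa* (0.78 to 1.48), *C1qb* (1.28 to 1.67), *C1qc* (0.48 to 1.10), *C3ar1* (1.17 to 1.29) and *Cfp* (0.0040 to 1.51). The median of the other complement genes ranged from −0.19 to 0.62 and that of the macrophage markers from 0.46 to 1.45. With a pseudocount of 1, the log2 fold change was 1.01 for *C1qb*, 0.44 for *C3ar1* and 0.23 for *C5ar1*, and the median was 0.44 for the 9 genes, 0.52 for the macrophage markers and 0.07 for the other complement genes. The filter on low values drops *C3ar1* and *C5ar1*. The unknown depth limits the low genes most.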
